A study of Homo sapiens with 4 samples.

Results

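Small nucleolar RNAs (snoRNAs) and the loci that contain them were examined in LNCaP cells, an established human prostate cancer line derived from a metastasis in a lymph node. A snoRNA locus was taken in when its symbol starts with SNORA, SNORD or SCARNA, its status was OK in all 4 libraries and its FPKM reached at least 1 in at least 2 of them. FPKM is the number of fragments per kilobase scaled to the mapped fragments of a library. The rule was met by 117 of the 736 such loci that all 4 libraries list, and by 68 SNORA, 41 SNORD and 8 SCARNA loci. These 117 loci are part of 10091 loci tested. All members carry the biotype snoRNA. A further 52 tested loci of that biotype lack such a symbol and were not taken in. The loci were thus chosen by their FPKM in these libraries, and that they were detected is no finding.

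Cells of passage 22 were transfected with 2500 ng of plasmid, and total RNA was taken after 48 h. One group received a vector for CRYM, which encodes mu-crystallin, a thyroid hormone binding protein, and the other an empty vector, with 2 libraries each. Both groups received the same lipid reagent and serum at 10%, and overexpression was transient in a single line. The comparison asks what extra CRYM does to transcript levels. The labels call the libraries biological replicates but do not name separate cultures, so each p-value measures only the spread between these libraries.

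The snoRNAs are short stable RNAs that guide enzymes to other RNAs. C/D box snoRNAs, named SNORD, guide 2′-O-methylation of ribosomal RNA by fibrillarin, and H/ACA box snoRNAs, named SNORA, guide pseudouridylation by dyskerin. SCARNA loci make relatives that act in Cajal bodies on spliceosomal RNAs. In human cells most are cut out of introns of host genes, many of which encode ribosomal proteins or are non-coding RNAs. The mature forms carry no poly(A) tail, while these libraries were made with a kit for mRNA, and the tables do not tell a mature snoRNA from a fragment of its host's precursor.

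The letters that define both classes were found in the sequences matched by Ensembl identifier in GENCODE v29. The C box was searched as TGATGA in the first 20 bases and the D box as CTGA in the last 15, on the given strand. Both boxes stood in 30 of the 39 SNORD sequences matched, or 76.9%, against 66.5% of all SNORD genes of that annotation and 22.0% of all its snoRNA and scaRNA genes. The letters ACA ended 3 bases before the end in 51 of 68 SNORA sequences, or 75%, against 75.5% of all SNORA genes of the annotation. None of the 68 SNORA sequences held both C and D boxes, and 2 of the 39 SNORD sequences ended with ACA in that place. The sequences below belong to 4 loci whose values are compared with their host genes, and to a pair that shares 1 symbol. Each is written 5′ to 3′ from GENCODE v29, with the boxes in capitals.
SNORD60, C/D box, hg19 chr16:2205024-2205106, minus strand: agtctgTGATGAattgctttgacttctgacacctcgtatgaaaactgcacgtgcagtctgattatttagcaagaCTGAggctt
SNORD88A, C/D box, hg19 chr19:51302699-51302789, minus strand: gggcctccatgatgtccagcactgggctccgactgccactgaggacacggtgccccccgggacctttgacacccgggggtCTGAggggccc
SNORA13, H/ACA box, hg19 chr5:111497182-111497314, plus strand: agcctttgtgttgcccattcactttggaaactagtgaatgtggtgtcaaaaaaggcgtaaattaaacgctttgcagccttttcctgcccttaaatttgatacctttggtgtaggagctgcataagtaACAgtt
SNORA26 in DANCR, H/ACA box, hg19 chr4:53579416-53579537, plus strand: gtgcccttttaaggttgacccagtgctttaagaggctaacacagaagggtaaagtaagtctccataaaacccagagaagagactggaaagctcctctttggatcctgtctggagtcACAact
SNORA26 in PCNA, H/ACA box, hg19 chr20:5102063-5102185, minus strand: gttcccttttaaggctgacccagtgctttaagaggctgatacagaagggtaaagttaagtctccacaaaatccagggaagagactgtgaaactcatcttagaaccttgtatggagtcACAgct
The SNORD88A sequence has the D box alone in these windows. The SNORA26 pair is 86.2% identical, and its loci had 58 fragments in DANCR and 4 in PCNA over the 4 libraries.

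Most of the listed loci had no fragment. Of the 736 loci, 556 were at 0 in all 4 libraries and 59 were above 0 in 1 library only. Among the 117 members, 55 were above 0 in all 4 libraries, 31 in 3 and 31 in 2. Just inside the minimum, by their second highest FPKM, stood SCARNA1 at 1.02, SNORA75 on chromosome 12 at 1.03, SNORA81 on chromosome 18 at 1.11 and SNORA58 on chromosome 3 at 1.29. Just outside stood SNORA73 on chromosome 14 at 0.307, SCARNA6 at 0.301, SCARNA7 at 0.289 and SCARNA5 at 0.126. SCARNA6 had 2, 3, 2 and 2 fragments in empty vector 1 and 2 and CRYM 1 and 2, more than many members, but 265 bp of width.

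The number of fragments behind a value can be read from its deposited interval, if this reaches 2 SD of counting error above and below the value. For the 375 member values above 0, the implied number was within 0.1 of a whole number in 96.3%, and it was rounded. A single fragment carried 122 of these values, 1 to 3 fragments carried 58.9%, and 10 or more carried 45. Only 5 of the 117 members had at least 10 fragments in every library, and 97 had under 10 in every library. These numbers cover counting error only. The value of 1 fragment gave a depth of 1.13 for empty vector 2, 0.837 for CRYM 1 and 1.07 for CRYM 2, relative to empty vector 1.

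FPKM ranked the classes differently from fragments. The median member had a mean FPKM of 55.4 among SNORD loci, 3.38 among SNORA loci and 3.81 among SCARNA loci. Its fragments over all 4 libraries were 8, 7 and 11 in the same order. SNORD loci were shorter, with a median width of 88 bp against 135 bp for SNORA and 134 bp for SCARNA. A fragment was worth a median of 22.1 FPKM at SNORD loci, 1.97 at SNORA loci and 2.17 at SCARNA loci. These medians differ by more than the widths do, and how the deposited FPKM takes length into account was not examined. SNORD78 shows the extreme: its FPKM was 2386 and 1813 with the empty vector and 1416 and 1392 with CRYM, from 8, 7, 4 and 5 fragments on 65 bp. SNORD17 had more fragments, 33, 29, 21 and 29, and an FPKM of only 10.0, 7.82, 7.03 and 7.78 on 237 bp. FPKM levels of snoRNA loci of different width are therefore given here with their fragments.

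**Figure D1:**
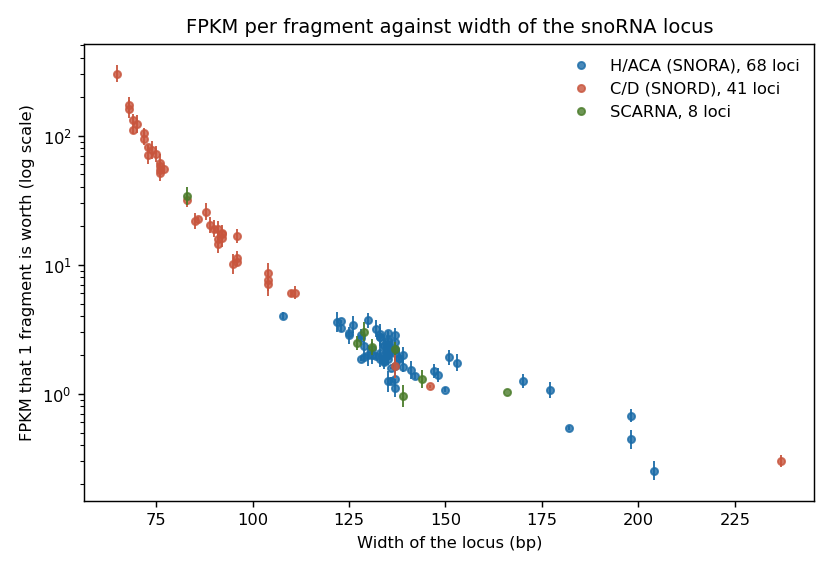
FPKM that 1 fragment is worth (vertical axis, log scale) against the width of each of the 117 snoRNA loci in bp. Points are loci coloured by class and vertical lines span the libraries; the value falls from over 100 FPKM at the shortest SNORD loci to under 1 at the widest loci.

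In sum over each class, and with all 4 libraries used, the ratio of CRYM to empty vector fragments at equal depth had an interval that includes 1. The intervals of fragment ratios, here and below, cover counting error of pooled libraries and not the spread between libraries. The 68 SNORA loci had 226, 287, 192 and 274 fragments in empty vector 1 and 2 and CRYM 1 and 2. Scaled to the depth of empty vector 1 these were 226, 253, 229 and 257, and the ratio of CRYM to empty vector was 1.02 (95% exact binomial interval 0.897 to 1.16). The groups overlapped. This sum leans on SNORA73B, which had 129 of the 513 empty vector fragments and 75 of the 466 CRYM fragments. Its own ratio was 0.652 (0.484 to 0.874). The 44 SNORA loci that lie inside a wider listed locus do not include it, and had a ratio of 1.14 (0.964 to 1.34). The sum without SNORA73B alone was not tested. The 41 SNORD loci had 198, 197, 159 and 184 fragments at equal depth, and both CRYM libraries were below both empty vector libraries. Their ratio was 0.875 (0.755 to 1.01). Without CRYM replicate 2 the ratio was 0.804, and without CRYM replicate 1 it was 0.930. The intervals of these ratios are not given, so that of SNORD may depend on a single library. The 8 SCARNA loci had 30, 17.6, 23.9 and 24.4 fragments at equal depth, a ratio of 1.03 (0.676 to 1.57). Over all 117 loci the ratio was 0.958 (0.873 to 1.05), and over all 736 listed loci 0.984 (0.899 to 1.08).

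**Figure D2:**
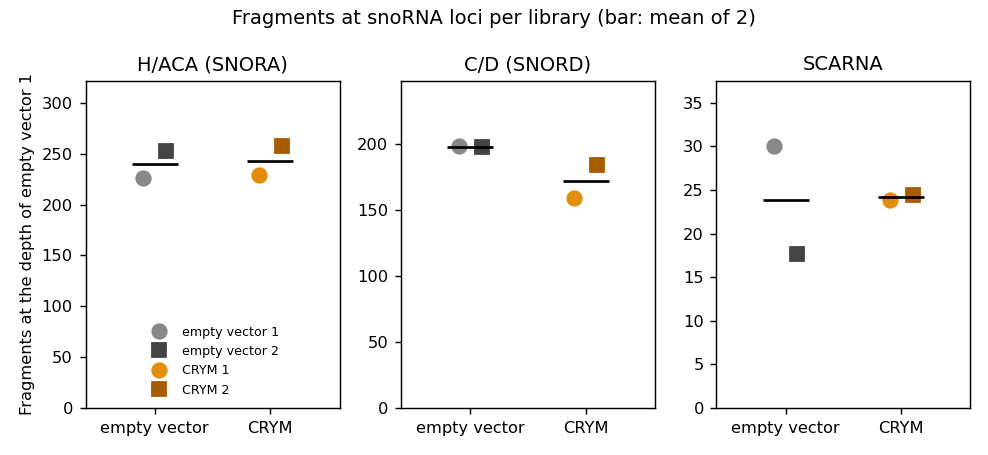
Fragments at SNORA, SNORD and SCARNA loci in each library, scaled to the depth of empty vector 1 (vertical axis from 0), with points for libraries and bars for the mean of 2. The SNORD values of CRYM, 159 and 184, lie below the empty vector values of 198 and 197, and the other classes overlap.

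Locus by locus, the test was limma on log2(FPKM + 1) over all 10091 loci, with Benjamini-Hochberg adjustment at 0.05. It called 12 of the 117 snoRNA loci, 7 higher and 5 lower with CRYM, which is 10.3% of them, against 33.3% of all tested loci (15.7% higher and 17.7% lower). The groups did not overlap at 42 of the 117 loci, or 35.9%, against 72.2% of all tested loci. SNORA had 4 higher and 3 lower of 68, SNORD 3 higher and 2 lower of 41, and no SCARNA locus of 8 was called, nor had any an unadjusted p under 0.05. The median log2 difference was 0.01 for SNORA, -0.04 for SNORD and 0.01 for SCARNA, against 0.01 for all tested loci. No library could be spared: with any 1 of the 4 left out, limma called 0 of the 117 loci, and 0 of all 10091, while 18 to 28 of the 117 kept an unadjusted p under 0.05. Scaling each library to the same total FPKM gave 5 higher and 17 lower, but it moved the median log2 difference of all loci to -0.52.

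Of the 12 called loci, 6 had both libraries of 1 group at 0, so that they had to differ once they met the rule. SNORD38 on chromosome 3 was listed at 0 in both empty vector libraries and at 148 and 116 FPKM with CRYM, which is 1 fragment each. SNORD116-26 was at 0, 0, 18.9 and 14.8, also from 1 fragment in each CRYM library. SNORD73 was at 0, 0, 214 and 84.1 from 2 fragments and 1. SNORA43 stood at 0, 0, 6.37 and 2.56, and SNORA41 at 0, 0, 6.02 and 2.39, from 2 fragments and 1 each. SNORA70 on chromosome 1 went the other way, at 2.17 and 1.96 in the empty vector libraries, 1 fragment each, and at 0 in both CRYM libraries. No fold is given for these 6, because both groups hold at most 3 fragments.

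The other 6 called loci were above 0 in all 4 libraries, and none of them overlapped between groups. SNORD60 rests on the most fragments. Its FPKM was 582 and 610 with the empty vector and 290 and 372 with CRYM, from 19, 22, 8 and 13 fragments. It fell by 0.86 (SE 0.15) on the log2(FPKM + 1) scale, with a limma adjusted p of 0.036. At equal depth its fragments had a ratio of 0.575 (0.323 to 0.995).

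SNORA13 was at 18.6 and 11.7 FPKM with the empty vector and at 3.22 and 2.50 with CRYM, from 7, 5, 1 and 1 fragments. The log2 difference was -2.04 (SE 0.28, limma adjusted p = 0.0239) and the ratio of fragments 0.187 (0.0203 to 0.840). SNORD88A was at 56.6, 134, 16.8 and 13.1 FPKM, from 4, 11, 1 and 1 fragments. Its log2 difference was -2.48 (SE 0.52, limma adjusted p = 0.0487), and its fragments had a ratio of 0.150 (0.0166 to 0.643). SNORA72, in NUCKS1, was at 12.3, 11.0, 3.72 and 5.77 from 4, 4, 1 and 2 fragments (log2 difference -1.16, limma adjusted p = 0.042), and the interval of its ratio of fragments, 0.0719 to 1.75, includes 1.

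The 2 loci above 0 throughout that were called higher were small changes on few fragments. SNORA81 on chromosome 21, in an intron of SOD1, was at 2.15, 2.79, 4.91 and 4.78 FPKM from 2, 3, 4 and 5 fragments (log2 difference 0.76, limma adjusted p = 0.0297). SNORA74 on chromosome 5 was at 4.42, 5.25, 7.12 and 6.99 from 3, 4, 4 and 5 fragments (log2 difference 0.47, limma adjusted p = 0.0441). Their ratios of fragments had intervals of 0.608 to 7.67 and 0.478 to 4.56, both of which include 1. SNORA81 was also a member on chromosomes 3 and 18, with sequences 62.1% and 69.5% identical to that on chromosome 21, and neither of those loci was called.

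**Figure D3:**
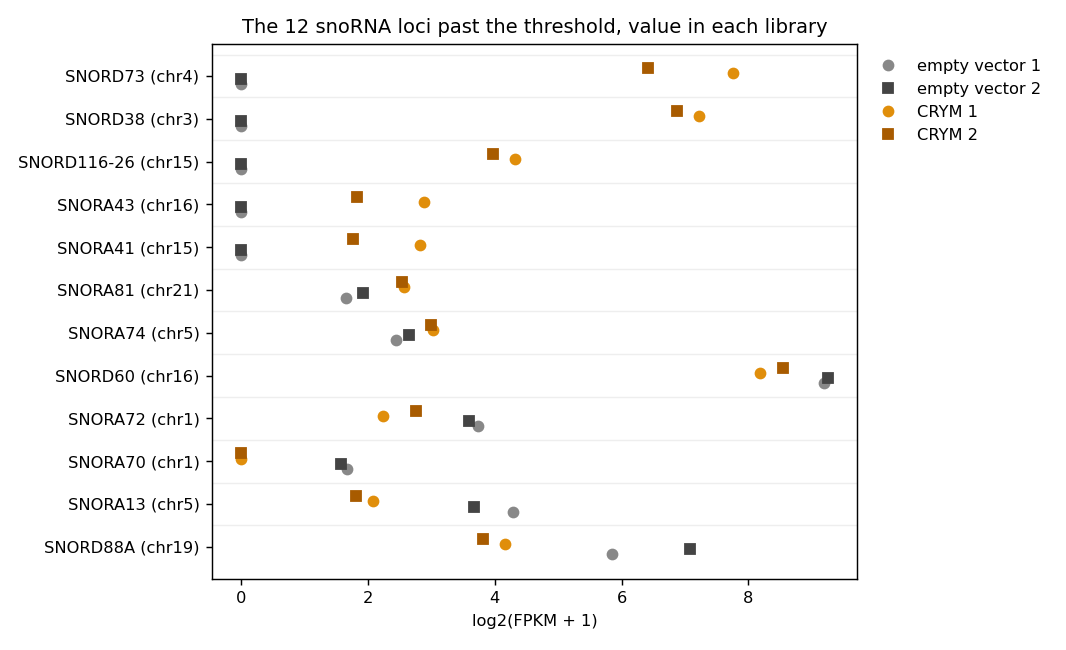
log2(FPKM + 1) in each of the 4 libraries (horizontal axis) for the 12 snoRNA loci called by limma, ordered by log2 difference. Of these, 6 loci have both libraries of 1 group at 0 and the other 6 are above 0 in all 4 libraries; squares and circles mark replicate numbers.

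The 4 loci with most fragments, SNORA73B, SNORD17, SNORD12B and SNORD83A, were not called. SNORA73B encodes a form of U17, an H/ACA snoRNA that acts in cleavage of the ribosomal RNA precursor and not in modification. Its FPKM was 15.1, 14.2, 7.76 and 11.4 from 63, 66, 26 and 49 fragments. Both CRYM libraries lay below both empty vector libraries (log2 difference -0.59, SE 0.21, limma adjusted p = 0.129). Its ratio of fragments at equal depth was 0.652 (0.484 to 0.874). Other uncalled loci had such intervals on both sides of 1. They lay below 1 at SNORD99, SNORA2A, SNORD125 and SNORD100. Above 1 were SNORA42 on chromosome 1 (5.05, 1.05 to 48.0) and on chromosome 14 (2.72, 1.07 to 7.77), and SNORD124 (7.85, 1.01 to 354). These intervals were not adjusted for the number of loci. SNORD17 differed by -0.23 (SE 0.14, limma adjusted p = 0.309), with a ratio of 0.905 (0.611 to 1.33). SNORD12B, which with SNORD12 and SNORD12C lies inside ZFAS1, was at 333, 445, 238 and 294 FPKM from 18, 27, 11 and 17 fragments, and SNORD12 at 257, 195, 177 and 285 from 14, 12, 8 and 16. The limma adjusted p was 0.15 for the first and 0.994 for the second. SNORD83A, in RPL3, was at 195, 168, 133 and 180 FPKM from 20, 20, 11 and 19 fragments, and the groups overlapped.

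The other SNORA loci with high values and many fragments were not called either. SNORA26 in DANCR was at 34.8 and 38.8 FPKM with the empty vector and at 90.1 and 47.2 with CRYM, from 10, 13, 21 and 14 fragments, which did not overlap (limma adjusted p = 0.202). SNORA33 in RPS12 was at 39.5, 51.9, 21.3 and 67.0, so that the CRYM libraries were the lowest and the highest. SNORA45 in RPL27A was at 25.9, 15.6, 10.1 and 30.1, again with both extremes in the CRYM libraries. For SNORA65, in RPL12 by the annotation, the values were 20.3, 16.5, 14.4 and 18.3.

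At 6 of the 8 SCARNA loci the groups overlapped. SCARNA18 was highest, at 275, 144, 159 and 156 FPKM from 8, 5, 4 and 5 fragments on 83 bp. SCARNA15 was at 18.7, 6.51, 8.34 and 15.3, SCARNA8 at 8.76, 2.00, 10.6 and 4.22, and SCARNA17 at 4.89, 3.33, 4.55 and 1.23, all overlapping between groups. SCARNA21, in CHD3, was at 4.43, 3.95, 3.49 and 3.60, without overlap (limma adjusted p = 0.146). SCARNA24 was at 2.16, 0, 2.50 and 9.99, also without overlap, on 7 fragments in all. SCARNA4 was at 0, 5.12, 7.13 and 2.78, and SCARNA1 at 0, 1.02, 0 and 1.04.

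Position was described from the annotation, not from the values. Of the 117 loci, 114 matched a GENCODE v29 gene by Ensembl identifier. Of these, 104 lie inside a gene on their own strand, 97 of them in an intron and 7 overlapping an exon of a transcript. A further 7, all SNORA, lie only inside genes of the opposite strand, and 3 lie in no gene. Version 29 carries 29 of the loci under an Rfam family number without a snoRNA symbol. A copy of at least 95% identity exists elsewhere in the annotation for 7 members, SNORD60 among them, and their fragments may be shared with that copy. Each of 13 symbols is used for more than 1 member locus, 28 loci in all, and the sequences of such pairs are 59.1% to 92.8% identical.

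The host of a locus was taken as the widest listed locus that contains it. It exists for 90 members and makes 72 host loci, of which 65 were tested. Hosts differed by far less than their snoRNAs: the median absolute log2 difference was 0.17 for the tested hosts and 0.54 for the members, most of which rest on few fragments. Of the hosts, limma called 10 higher and 11 lower, or 32.3%, against 33.3% of all tested loci. The split was 13 higher and 8 lower after quantile normalization and 0 higher and 52 lower after scaling to the same total FPKM. With any 1 library left out limma called no host, while 19 to 31 kept an unadjusted p under 0.05. Of the 7 untested hosts, 6 are listed at 0 in all 4 libraries and 1, the CKAP5 locus, was left out by status.

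C19orf48, a host that fell, holds SNORD88A in an intron. Its FPKM was 274 and 271 with the empty vector and 141 and 144 with CRYM, a ratio of means of 0.522 (limma adjusted p = 0.00377). Host and snoRNA were both called lower. PCNA, the sliding clamp of DNA replication, fell from 169 and 164 to 96.7 and 100.1 (ratio 0.591, limma adjusted p = 0.00597), while its SNORA26 locus had 1, 1, 0 and 2 fragments. The ribosomal protein host RPS12 fell as well, from 2407 and 2223 to 1946 and 1925 (limma adjusted p = 0.0453). NOP58, which encodes a core protein of C/D snoRNPs, fell from 48.2 and 47.3 to 39.6 and 39.5, but its deposited intervals are wide, at 1.37 to 93.1 in empty vector 2, 0 to 101.6 in CRYM 1 and 0 to 87.9 in CRYM 2. Its intronic SNORD11 had 1, 1, 1 and 0 fragments. CCT6A, HAUS6, IARS, MRPL3 and TBRG4 were also called lower, with ratios of means between 0.751 (HAUS6) and 0.871 (MRPL3).

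The TAF1D locus was called lower, but in a way that depends on how the region was divided. TAF1D encodes a subunit of the factor that starts ribosomal RNA transcription, and its introns hold SNORD6. The widest locus, at chr11:93463114-93517557, was at 124 and 121 FPKM with the empty vector, with deposited intervals that reach down to 0, and listed at 0 in both CRYM libraries. In CRYM 2 a nested locus at chr11:93474757-93497915 was at 112.9 FPKM and was at 0 in the other 3 libraries. In CRYM 1 the 4 wide loci examined in the region were all listed at 0. Narrower loci of the region other than SNORD6 were not examined. No fold is given, and SNORD6 had 2, 0, 0 and 3 fragments.

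Among hosts called higher were 2 non-coding hosts and 2 coding ones with high levels. The locus RP11-304L19.5 holds SNORD60, which the annotation places inside SNHG19. RP11-304L19.5 was at 118 and 115 FPKM with the empty vector and at 137 and 144 with CRYM (ratio 1.21, limma adjusted p = 0.0244). DANCR rose from 170 and 165 to 193 and 193 (ratio 1.15, limma adjusted p = 0.0207). HSPA8, a constitutive chaperone that holds SNORD14E, rose from 877 and 918 to 1043 and 1005 (limma adjusted p = 0.0478). RPL5, which holds SNORA66, rose from 616 and 612 to 696 and 690 (limma adjusted p = 0.0188). Their deposited intervals overlap between groups. That of HSPA8 reaches 982 in empty vector 2 and starts at 936 in CRYM 2. For RPL5 it reaches 655 in empty vector 1 and starts at 650 in CRYM 2. CHD8, ATP2B4, MAP4K3 and ZBED3 were higher at levels under 15 FPKM, with ratios of 1.22 to 1.34. The unnamed locus around the SNORD116 cluster, a set of C/D genes of an imprinted region, was at 29.2, 29.6, 34.8 and 32.9 FPKM (limma adjusted p = 0.0467), and its deposited interval reaches down to 0 in all 4 libraries. Its 5 member loci had 3, 3, 10 and 4 fragments together. The tenth host called higher was an unnamed locus around SNORA70G on chromosome 12, at 26.9, 25.2, 41.5 and 39.8, which has no gene on the strand of the snoRNA.

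Of 81 members with a tested host, 49 had a log2 difference of the same sign as the host and 32 of the opposite sign, and 3 were called together with it. SNORD88A fell with C19orf48, and SNORD116-26 was higher with its host locus. SNORD116-26 had 0 fragments with the empty vector and 2 with CRYM, so it had to be higher once it met the rule. SNORD60 went against its host: the snoRNA fell from 582 and 610 to 290 and 372 FPKM while RP11-304L19.5 rose from 118 and 115 to 137 and 144. Across the 81 pairs the log2 differences had a Pearson r of 0.07, and of 0.23 over 80 pairs without TAF1D. The pairs share the libraries and, in 11 hosts with 29 members, the host. Most member values rest on few fragments, so a weak r is no finding.

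**Figure D4:**
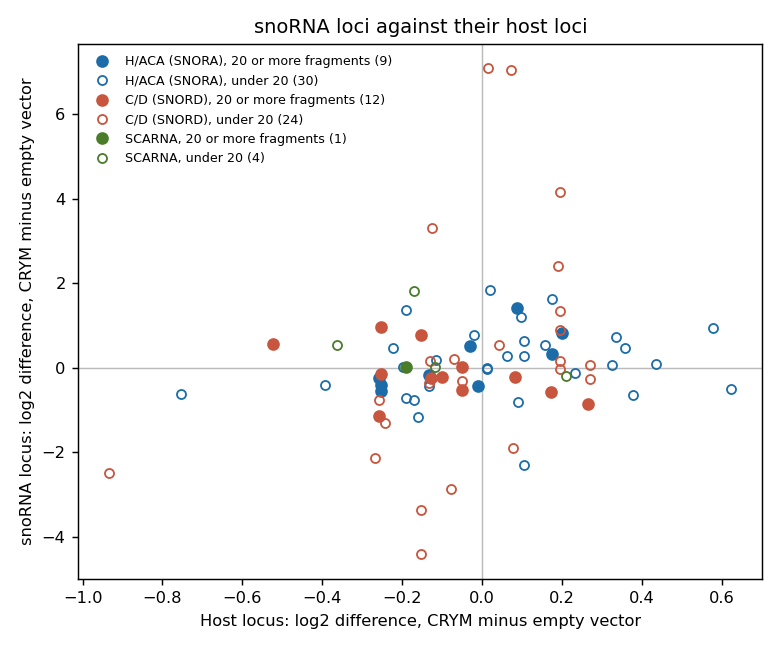
Log2 difference of each snoRNA locus (vertical axis) against that of its host locus (horizontal axis), both CRYM minus empty vector on the log2(FPKM + 1) scale. Filled points have 20 or more fragments; 80 pairs are drawn, the TAF1D pair at a host value of -6.95 lies off the axis, and the host values span a far narrower range.

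SNORA13 shows how the choice of host matters. The widest locus around it is EPB41L4A, which runs on the opposite strand and is listed at 0 in all 4 libraries. The annotation places SNORA13 in an intron of EPB41L4A-AS1 on its own strand. That non-coding gene rose from 49.2 and 49.4 FPKM to 63.2 and 65.3 (ratio 1.30, limma adjusted p = 0.0107), while the snoRNA fell on 7, 5, 1 and 1 fragments. For 7 members the host locus is a gene of the opposite strand. The sources used here do not say whether strand was used in quantification, so reads of both strands cannot be told apart there.

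**Figure D5:**
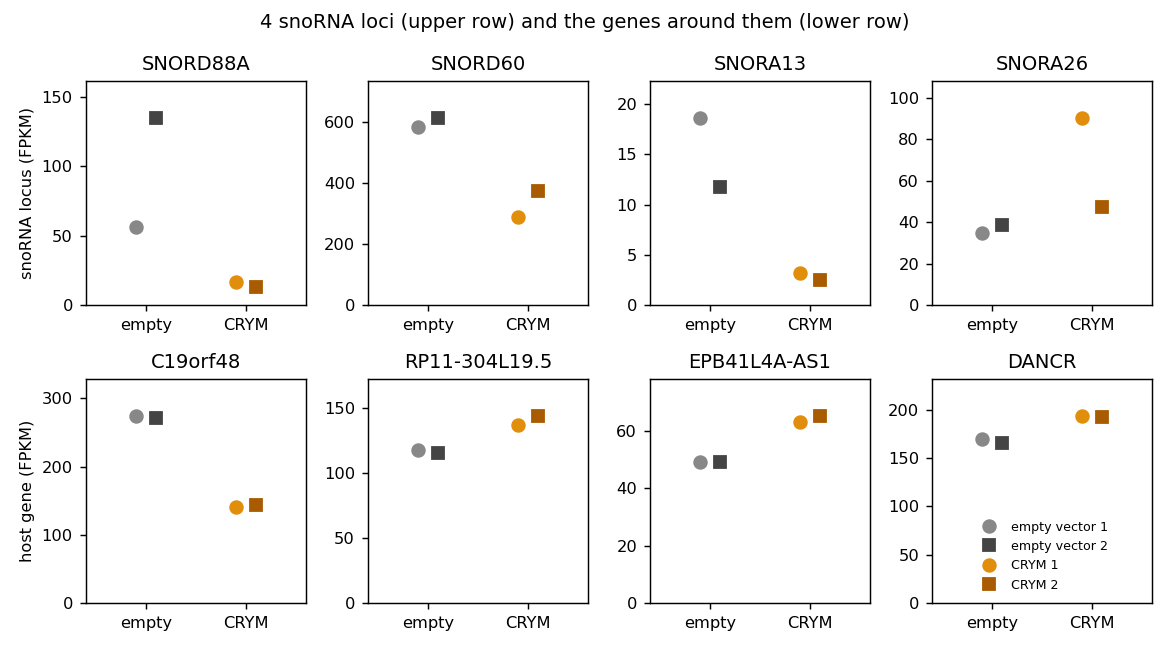
FPKM in each library (vertical axes from 0) of SNORD88A, SNORD60, SNORA13 and SNORA26 on chromosome 4 in the upper row, and of C19orf48, RP11-304L19.5, EPB41L4A-AS1 and DANCR in the lower row. The SNORD88A pair is lower with CRYM, SNORD60 and SNORA13 are lower while the genes around them are higher, and SNORA26 and DANCR are both higher, although SNORA26 was not called.

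Some hosts hold several members, whose values are given side by side; differences between them were not tested. RPS12 holds 3 members: SNORA33 had 11, 16, 5 and 20 fragments, SNORD100 had 13, 10, 3 and 6, and SNORD101 had 5, 3, 2 and 2. SNORD100 did not overlap between groups, at 665, 446, 196 and 307 FPKM (limma adjusted p = 0.0989), and its ratio of fragments was 0.439 (0.179 to 0.985). In GNL3, which encodes nucleostemin, the SNORD19 locus at chr3:52725394-52725469 was at 432, 319, 645 and 619 FPKM, without overlap (limma adjusted p = 0.0593). The other SNORD19 locus of that gene had 2, 2, 1 and 0 fragments, and SNORD69 had 2, 3, 0 and 3. GNL3 itself was at 136, 145, 127 and 126. In TBRG4, SNORA5A varied from 1 to 11 fragments within groups, at 2, 11, 6 and 1, and SNORA5C stood at 4, 10, 3 and 5. In KANSL2, SNORA2A had 1, 10, 0 and 1 fragments, SNORA34 had 1, 3, 2 and 2, and SNORA2B had 0, 2, 1 and 1. HSPA9 by the annotation holds both SNORD63 loci, which had 5, 4, 12 and 5 and 5, 9, 4 and 7 fragments.

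Highly expressed hosts held loci with more fragments. Members in hosts of at least 100 FPKM on average, 29 pairs, had a median of 17 fragments over the 4 libraries, and the 52 in lower hosts had 7. Across the 81 pairs, the log2 number of fragments and the log2 level of the host had a Pearson r of 0.36, which is across loci that share the libraries and in part the host.

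The genes of snoRNA assembly, processing and ribosome synthesis, with further host genes, formed a list of 98 symbols. Only 28 were found under the symbol in the list and 27 tested. A gene present under another name counts as not found. Of those tested, limma called 4 higher, 9 lower and 14 not, or 48.1% called against 33.3% of all loci. The median log2 difference of the list was -0.08, against 0.01 for all tested loci. It was 5 higher and 4 lower after quantile normalization, 0 higher and 25 lower after scaling to the same total FPKM, and 0 with any 1 library left out, while 12 to 14 kept an unadjusted p under 0.05 in limma. Of the snoRNP proteins and assembly factors, 5 were tested. NOP58 fell, as above, and RUVBL1, an ATPase of snoRNP assembly, fell from 121 and 118 FPKM to 89.6 and 88.9. SNU13, the C/D protein that binds the kink-turn, was at 151, 143, 101 and 126, without overlap (limma adjusted p = 0.12). NOP10 of the H/ACA core was at 285, 281, 268 and 269, and COIL, the coilin of Cajal bodies, at 10.1, 9.99, 9.98 and 10.5.

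Of the ribosome synthesis genes, IMP3, which encodes a protein of the small subunit processome, fell from 79.9 and 80.0 to 65.9 and 63.6, and TAF1D is described above. NCL, nucleolin, which holds SNORA75 in an intron, was at 202, 201, 415 and 179, so that 1 CRYM library stood above the other 3 and the other CRYM library was the lowest. Of the decay enzymes, XRN1 was at 10.6, 10.4, 11.5 and 8.50 and PARN at 20.6, 27.3, 20.4 and 20.9, and neither was called.

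SNHG9 was the non-coding host of the list that fell, from 177 and 159 to 115 and 124. SNHG10 was at 11.6, 10.2, 10.3 and 10.2 and SNHG16 at 58.4, 60.9, 55.4 and 56.8, and neither was called. DANCR and EPB41L4A-AS1 rose. Among coding hosts, RPL23A fell from 1392 and 1396 to 1151 and 1151 and RPL30 from 2637 and 2540 to 2286 and 2195, beside RPS12, while RPL5 and HSPA8 rose. RPL3, RPL27A and RPS3 were not called, RPL3 at 1650, 1593, 1714 and 1721. Ribosomal protein genes have many processed pseudogenes, with which their reads can be shared.

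The labels were checked on the CRYM locus, the unnamed locus that follows ANKS4B, at chr16:21250195-21314404, which was at 1.17 and 0.977 FPKM with the empty vector and at 65.3 and 72.5 with CRYM. Markers of the luminal line were found for 2 of 10 genes, HOXB13 and SPDEF, at a summed FPKM of 215, 212, 157 and 162. That sum was lower in both CRYM libraries, and its part in the snoRNA results was not tested. The basal marker TP63 was at most 0.0761 FPKM and the neuroendocrine marker INSM1 at most 0.0138. Of 4 endothelial markers 2 were found, with sums of 1.94 to 2.71, and of 4 immune markers HLA-DRA alone, at 1.56 to 2.40. None of 4 fibroblast markers was found under a name.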

How the data were processed

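RNA of 4 LNCaP libraries was sequenced as single reads of 50 bp after a stranded mRNA kit, per the labels' protocols. TopHat2 2.1.1, Bowtie2 2.2.9, Cufflinks 2.2.1, Cuffdiff and the builds hg19 and GRCh37 are named in the submitters' processing notes, which give no roles. Each deposited table holds, per the file headers, an FPKM, its interval and a status for every locus. The absolute depth is unknown.

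Libraries were joined by identical locus, 52318 in all. Loci with status OK in all 4 libraries that reached an FPKM of 1 in 2 of them, 10091 in all, were tested with limma 3.58.1 (R 4.3.3) on log2(FPKM + 1), group only, with a variance trend, two-sided, with Benjamini-Hochberg adjustment over all of them. A log2 difference on that scale understates the change of low loci. Fragments were computed as the square of 2 times the FPKM over the distance to the upper bound, and are not given for hosts. In simulated data with the spread of the tested loci the fit recovered changed loci, more of the larger changes. Rates of recovery and of false calls are not given here. The simulation therefore does not show how the fit performs on snoRNA loci with few fragments or none in a library. Most host loci carry no name in the files. Of 72, 5 were named by the files and 55 through GENCODE v29 (GRCh38), where a named locus inside has a gene with the same offset and width, within 100 bp. The other 12 stayed unnamed, and no coordinate was converted. Positions are counted from 1. Identity was computed with edlib 1.3.9.post1.

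Members, lists and the rule for named genes were chosen with earlier results of these data known. The rule takes all SCARNA loci, the 12 highest members per class with a median of at least 10 fragments, called loci, those at the FPKM minimum, their hosts and the called genes of the list. Members of hosts with more than 1 member, SNORD78, SNORA65, SNORD17, SNORD100, hosts named only because they were called and the genes of the list that were not called were named after their values were seen. One host gene that was called is not reported here, though it is part of the counts.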

Additional observations from a re-analysis of the deposited data

How the results depend on the processing

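There are 2 libraries per group, and 58.9% of the snoRNA values above 0 rest on 1 to 3 fragments, which limits what single loci can show. Of the 12 snoRNA loci, 21 hosts and 13 list genes called, limma called 4, 7 and 6 with no filter on low values, when 26482 loci were tested; the cause of the drop was not tested. After scaling to the same total FPKM they were 22, 52 and 25. With the replicate number as a block they were 0, 0 and 0, with 26, 23 and 12 at an unadjusted p under 0.05. The deviations of same-numbered libraries had a correlation of 0.04, so the numbers were not taken to pair libraries. With each library left out in turn they ranged from 0 to 0; the lone library of a group was then taken to vary like the other group. The snoRNA calls were 7 with an FPKM of at least 1 in all 4 libraries, 6 among loci above 0 in all 4 and 1 among loci with at least 10 fragments in 2 libraries. Taking the narrowest named locus as host left 3 called of 4. All other settings kept these 3 counts within 1.5 times.

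The median log2 difference of SNORA loci was 0.27 with an FPKM of at least 1 in all 4 libraries, 0.27 among loci above 0 in all 4, -0.19 with at least 10 fragments and -0.24 after scaling to the same total. With a library left out it ranged from -0.16 to 0.44. For SNORD loci it was -0.60 after that scaling and ranged from -0.45 to 0.062 with a library left out, and for SCARNA loci it was -0.34 and ranged from -0.29 to 0.18. Over all listed loci the median FPKM of each class was 0, as most are at 0. The ratio of fragments over all members ranged from 0.893 to 1.01 with a library left out.

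Scaling to the same total FPKM reversed 11 called loci, whose log2 differences became -0.049 (SNORA74), -0.18 (ATP2B4), -0.29 (CHD8), -0.40 (DANCR), -0.41 (HSPA8), -0.16 (MAP4K3), -0.33 (RP11-304L19.5), -0.43 (RPL5), -0.19 (ZBED3), -0.39 (the SNORD116 locus) and -0.22 (EPB41L4A-AS1). All loci moved to a median of -0.52 under it. Reads as whole multiples at one width could be had at 0 of 57 widths, so that alternative was not run. Settings on fragments, host strand and listed loci were chosen after the values had been seen.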
